A study of Mus musculus with 6 samples.

Results

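MicroRNAs miR-216a, miR-216b and miR-217 are 3 hairpins of one genomic cluster that is known as a marker of pancreatic acinar cells, the cells that make digestive enzymes. Both arms of each hairpin were followed here, miR-216a-5p, miR-216a-3p, miR-216b-5p, miR-216b-3p, miR-217-5p and miR-217-3p. In the deposited small RNA table they carry the identifiers mmu-miR-216a-5p, mmu-miR-216a-3p, mmu-miR-216b-5p, mmu-miR-216b-3p, mmu-miR-217-5p and mmu-miR-217-3p. They were picked by these names and are 6 of the 1414 rows of that table, of which 1104 are known mouse miRNA arms. The series holds 6 pancreas libraries from wild-type C57BL/6 mice of 22 to 25 g. The 3 model libraries, replicates 56, 57 and 59, came from mice that received 7 intraperitoneal injections at intervals of 1 hour, of caerulein at 50 mg/kg in the unit the labels state, with lipopolysaccharide (LPS) added to the last. The 3 control libraries, replicates 43, 44 and 45, came from mice injected with saline. Tissue was taken 24 hours after the first injection. Caerulein is a cholecystokinin analogue that overstimulates acinar cells, and LPS is a bacterial cell wall component. The agents were given only in combination, and what each of them did cannot be told apart. The labels give neither age nor sex. They do not tie each library to a separate mouse either, and the p-values below describe variation among libraries that may in part be technical.

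A miRNA hairpin is cut by Drosha and Dicer into a duplex of its 5p and 3p arms, and one arm, the guide, is usually kept in an Argonaute protein while the other, the passenger, is lost. The guide finds messenger RNAs mainly through its seed, bases 2 to 8 from the 5′ end. In rodents, miR-216a and miR-217 are known for their enrichment in exocrine pancreas and for their appearance in blood when acinar cells are injured. The data here are tissue levels only.

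The mature sequences are shown because they decide which arms share a seed and whether reads of one arm could be taken for another. They are RefSeq's for build GRCm38.p6, 5′ to 3′ with the seed in capitals, and all 6 equal the deposited sequences.
miR-216a-5p: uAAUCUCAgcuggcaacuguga
miR-216b-5p: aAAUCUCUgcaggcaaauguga
miR-217-5p: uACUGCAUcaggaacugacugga
miR-216a-3p: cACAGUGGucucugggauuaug
miR-216b-3p: aCACUUACcuguagagauucuu
miR-217-3p: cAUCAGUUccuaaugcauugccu
The 5p arms of miR-216a and miR-216b are identical at 18 of 22 positions, and differ by U1A, A8U, U11A and C17A, written as miR-216a base, position from the 5′ end and miR-216b base. Of these, A8U lies in the seed, so bases 2 to 7 are shared and bases 2 to 8 are not. No other row of the table shares bases 2 to 7 with any of the 6 arms. The 4 differences mark these arms as each other's closest row in the table, and the other 4 arms differ from every other row at 9 or more positions when aligned from base 1, with differences in length counted.

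The hairpins are shown next, with both arms in capitals, because the amounts of the arms are compared within each of them further on.
Mir216b: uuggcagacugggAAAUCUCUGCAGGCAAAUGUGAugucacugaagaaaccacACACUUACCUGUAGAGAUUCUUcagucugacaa
Mir216a: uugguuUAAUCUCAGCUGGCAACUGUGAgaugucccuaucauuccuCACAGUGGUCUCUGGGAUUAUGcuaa
Mir217: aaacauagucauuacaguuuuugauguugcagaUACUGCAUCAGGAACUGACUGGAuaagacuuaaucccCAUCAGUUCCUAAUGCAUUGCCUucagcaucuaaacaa
All 3 lie on the plus strand of chromosome 11 in GRCm38, at chr11:28746191-28746276 for Mir216b, chr11:28757012-28757083 for Mir216a and chr11:28763728-28763835 for Mir217. Mir216a starts 10.7 kb after the end of Mir216b, Mir217 starts 6.6 kb after the end of Mir216a, and the cluster spans 17.6 kb. In the GENCODE M21 annotation Mir216a and Mir217 are intronic, in the intron after exon 2 of the long noncoding RNA gene Gm12082, and no other gene contains Mir216b. In RefSeq, Mir216b lies within Mir217hg and the other hairpins within Gm40818. The hairpin gene Mir216c is annotated on the opposite strand over Mir216b, and 0 rows of the table carry its name. The sources used here do not say whether counting used strand.

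Total counts per library ran from 1943693 to 3006220, and the cluster took 75213 to 98610 of them. Levels below are CPM, each count divided by its library's total over the 499 rows kept for testing times a TMM factor. These factors set the typical row equal between libraries. The cluster's share of all counts was 3.52%, 3.25% and 3.42% in model replicates 56, 57 and 59, against 3.67%, 3.16% and 4.44% in control replicates 43, 44 and 45. The 95% Wilson intervals reached at most 0.0291 percentage points to either side, and they cover counting error only. Control replicate 45 had the highest share and control replicate 44 the lowest, so the model values lay inside the control range.

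The arms differed widely in level. The 5p arm miR-216a-5p made up 68.4% ± 2.66 of the cluster's counts in model and 66.2% ± 2.92 in control libraries (SD, n = 3 each). Second came miR-216b-5p with 17.9% ± 1.55 in model and 18.6% ± 2.65 in control libraries. The arms of miR-217 were near each other, with 5.00% ± 1.40 for miR-217-5p and 5.19% ± 0.347 for miR-217-3p in model libraries, and 4.76% ± 2.88 and 5.99% ± 1.81 in control libraries. The 3p arm miR-216a-3p took 3.30% ± 0.230 in model and 4.33% ± 1.23 in control libraries, and miR-216b-3p 0.188% ± 0.0101 and 0.177% ± 0.0380. By mean CPM over all 1414 rows, miR-216a-5p ranked 14 in model and 13 in control libraries, and miR-216b-5p ranked 41 and 38. Both miR-217 arms ranked between 70 and 83 in either group, while miR-216b-3p ranked 249 in model and 236 in control libraries. Levels of different arms also carry ligation bias, which was not measured.

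The design compares pancreas of mice given caerulein with LPS against that of saline controls. All 6 arms of the cluster had lower mean CPM in the model libraries and negative log2 fold changes, as 49.7% of all rows tested had, and 0 of 6 passed the threshold of 0.05 for edgeR's adjusted p over the 499 rows tested. At an unadjusted p under 0.05, 3 of the 6 were lower, miR-216a-3p, miR-216b-5p and miR-217-3p. Over all rows tested with edgeR, 1.2% passed in either direction and 0.2% as lower, with 12.4% lower at an unadjusted p under 0.05. With DESeq2, 1 of the 6 passed, miR-216a-3p, where 11.3% of the 390 rows with an adjusted p passed in either direction and 5.64% as lower. The median log2 fold change, model over control, was -0.49 over the 6 arms and 0.00 over all 499 rows. In bulk tissue, fewer acinar cells and less miRNA per acinar cell cannot be told apart.

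**Figure D1:**
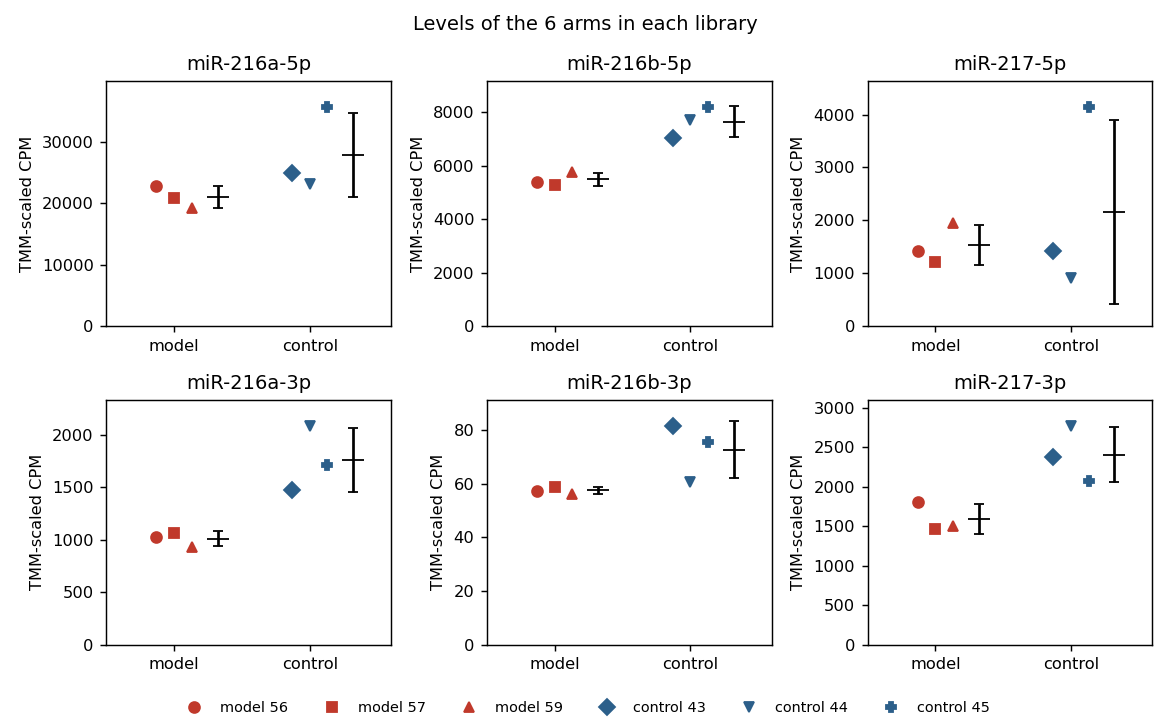
TMM-scaled CPM of each arm (vertical axis, from 0) in the 3 model libraries (red) and the 3 control libraries (blue), one symbol per replicate, with the mean and SD as a black bar to the right of each group. The model points lie below all control points in each panel but that of miR-217-5p, where control replicate 45 stands at 4138 CPM and the other controls at 909 and 1414 CPM.

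In the 5p arms, miR-216a-5p had 22820, 20894 and 19256 CPM in model replicates 56, 57 and 59, against 24841, 23057 and 35582 CPM in control replicates 43, 44 and 45. Each model library lay below each control, by a narrow margin for control replicate 44 and a wide one for control replicate 45. The means were 20990 ± 1784 CPM in model and 27827 ± 6775 CPM in control libraries (SD, n = 3 each), a log2 fold change of -0.41 with a standard error (SE) of 0.18 (adjusted p = 0.219 in edgeR). Without control replicate 45 the log2 fold change was -0.22 (edgeR adjusted p = 0.316).

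The related miR-216b-5p had 5380, 5292 and 5780 CPM in model replicates 56, 57 and 59, against 7023, 7722 and 8186 CPM in control replicates 43, 44 and 45. The groups were clearly apart and each was tight: the coefficient of variation, the SD as a percentage of the mean, was 4.75% in model and 7.66% in control libraries. Among the 99 rows with a mean of at least 1000 CPM the median coefficients of variation were 10.4% and 18.2%. The log2 fold change of miR-216b-5p was -0.48 with an SE of 0.14 and a 95% interval, before adjustment, of -0.80 to -0.16 (adjusted p = 0.0995 in edgeR). Its log2 fold change stayed between -0.55 and -0.42 when any 1 library was left out.

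The miR-217-5p arm had 1411, 1218 and 1947 CPM in model replicates 56, 57 and 59, against 1414, 909 and 4138 CPM in control replicates 43, 44 and 45. Here the groups overlapped, and the controls held both the highest and the lowest library. The control coefficient of variation was 80.7%, against a median of 18.2% over the rows of at least 1000 CPM. The log2 fold change was -0.50 with an SE of 0.55 and a 95% interval of -1.80 to 0.81 (adjusted p = 0.659 in edgeR), and without control replicate 45 it was 0.37 (edgeR adjusted p = 0.488). Its direction therefore rested on 1 library.

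Among the 3p arms, miR-216a-3p had 1030, 1068 and 931 CPM in model replicates 56, 57 and 59, against 1479, 2088 and 1716 CPM in control replicates 43, 44 and 45. Every model library was well below the lowest control. This arm had the most negative log2 fold change of the 6, -0.80 (SE 0.21, 95% interval -1.30 to -0.30 before adjustment), a linear ratio of 0.573, with an edgeR adjusted p = 0.0841. With DESeq2 its log2 fold change was also -0.80, at an adjusted p = 0.0116.

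The arm miR-217-3p had 1811, 1468 and 1504 CPM in model replicates 56, 57 and 59, against 2374, 2775 and 2081 CPM in control replicates 43, 44 and 45. The groups did not overlap, and control replicate 45, the highest library for miR-217-5p, was the lowest control for this arm. The log2 fold change was -0.60 with an SE of 0.20 and a 95% interval, before adjustment, of -1.07 to -0.12 (adjusted p = 0.143 in edgeR).

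The scarce miR-216b-3p had 57.4, 58.9 and 56.2 CPM in model replicates 56, 57 and 59, against 81.7, 60.8 and 75.6 CPM in control replicates 43, 44 and 45. Control replicate 44 lay just above the model libraries and the other controls further above. These levels rest on 155, 192 and 188 counts in the model and 212, 125 and 126 counts in the control libraries, and the exact 95% Poisson interval of the lowest, 125 counts, is 104 to 149, wider than that gap. The log2 fold change was -0.34 with an SE of 0.22 (adjusted p = 0.414 in edgeR).

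For 5 of the 6 arms, miR-217-5p being the exception, all 3 model libraries were below all 3 controls in CPM, as they were in 16.6% of all rows tested. That share covers rows of all levels and was not taken for abundant rows alone. Abundant rows outside the cluster also lay wholly lower, among them let-7a-5p, let-7c-5p, miR-26a-5p and miR-22-3p, while miR-34a-5p and miR-16-5p overlapped. The separation is therefore not particular to the cluster. As a description of abundant rows, of the 99 rows with a mean of at least 1000 CPM, 70 had a negative log2 fold change, with a median of -0.27, and of the 32 rows of at least 10000 CPM, 30 did, with a median of -0.37. The arms of the cluster at or above 1000 CPM, all but miR-216b-3p, ran from -0.80 to -0.41.

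**Figure D2:**
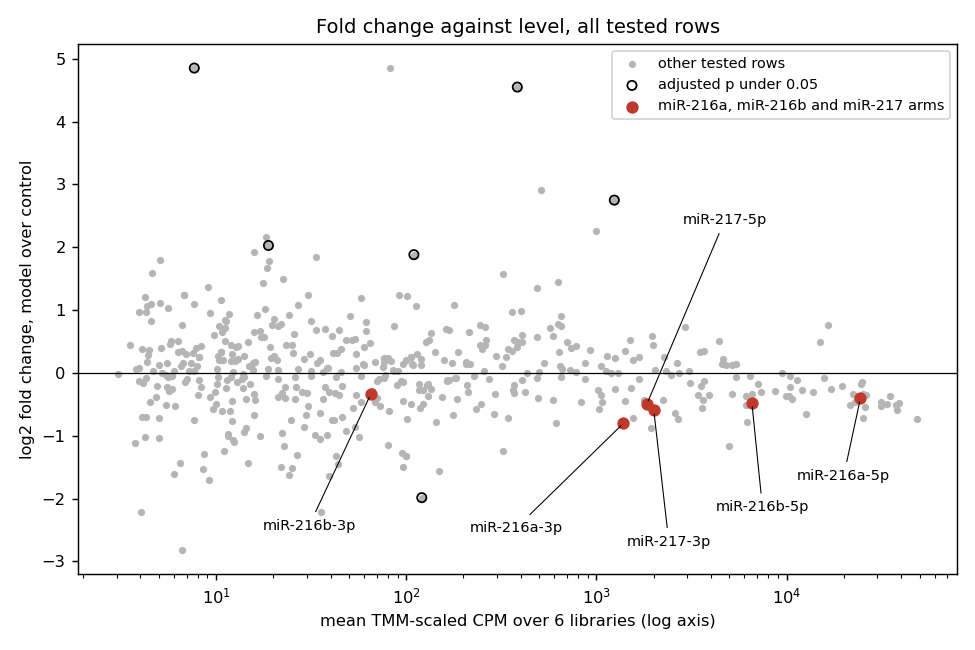
Log2 fold change, model over control (vertical axis), against the mean TMM-scaled CPM over the 6 libraries (horizontal axis, log scale) for the 499 rows tested. The 6 arms of the cluster (red) lie below 0, from -0.80 for miR-216a-3p to -0.34 for miR-216b-3p, and none is among the 6 rows with an edgeR adjusted p under 0.05 (black rings).

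These directions depended on how libraries were scaled. The table holds only part of each library: its counts were 10.2% to 13.6% of the totals behind the authors' RPM values (counts divided by those totals) in model libraries, against 7.17% to 9.43% in control libraries. The sources used here do not say what those totals count. In the authors' RPM, miR-216a-5p averaged 2758 ± 293 in model and 2080 ± 304 in control libraries (SD, n = 3 each), with all model libraries above all controls, as in 49.5% of rows tested. By contrast, RPM of miR-216a-3p was level, at 133.48 ± 22.3 in model and 133.54 ± 26.1 in control libraries. For miR-216b-5p RPM averaged 725 ± 111 in model and 580 ± 75.1 in control libraries, and the groups overlapped. No arm was below all controls in RPM.

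Fitted with the authors' totals in edgeR, the log2 fold change was 0.41 for miR-216a-5p (adjusted p = 0.172), 0.32 for miR-216b-5p (adjusted p = 0.363), 0.41 for miR-217-5p (adjusted p = 0.440), 0.44 for miR-216b-3p (adjusted p = 0.353), 0.16 for miR-217-3p (adjusted p = 0.718) and -0.0007 for miR-216a-3p (adjusted p = 1.00). That scaling moved the median of all rows by 0.79 on the log2 scale, total counts alone by 0.29, upper quartile factors by -0.29 and RLE factors by 0.00. Upper quartile factors put 2 arms past the threshold as lower, miR-216a-3p at -1.09 and miR-216b-5p at -0.77 (edgeR adjusted p = 0.0363 for both). Over all rows, 5 were called higher and 1 lower with TMM, 7 and 8 with RLE, 17 and 1 with total counts alone, 6 and 39 with upper quartile factors and 124 and 2 with the authors' totals. Relative to the median of all rows, all 6 arms were lower under all 5 scalings, by construction almost equally: miR-216a-3p lay at -0.81 to -0.79, miR-217-3p at -0.63 to -0.59, miR-216b-5p at -0.48 to -0.47, miR-217-5p at -0.51 to -0.38, miR-216a-5p at -0.41 to -0.39 and miR-216b-3p at -0.36 to -0.33.

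**Figure D3:**
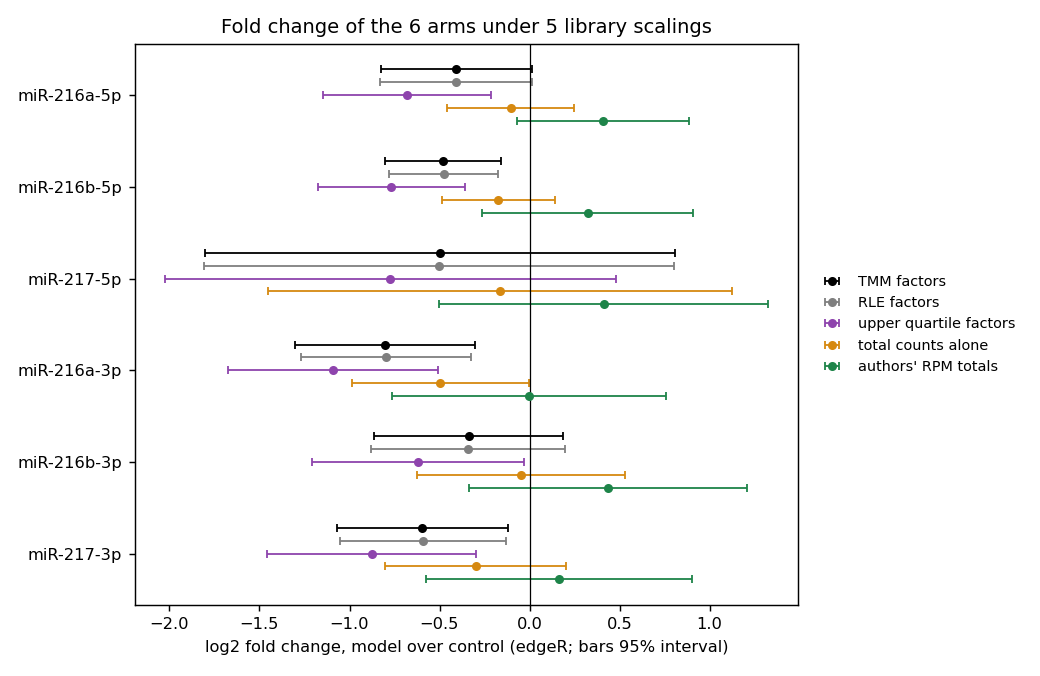
Log2 fold change, model over control, of each arm (horizontal axis) with its 95% interval under 5 ways of scaling the libraries, in edgeR. For each arm the 5 points keep nearly the same order and shift together, from the most negative with upper quartile factors to the highest with the authors' RPM totals, where 5 of the 6 lie above 0 and miR-216a-3p lies at -0.0007.

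A ratio of arms within one library needs no scaling. In miR-216a there were 22.2, 19.6 and 20.7 reads of the 5p arm per 3p read in model replicates 56, 57 and 59, against 16.8, 11.04 and 20.7 in control replicates 43, 44 and 45. Control replicate 45 was inside the model range and control replicate 44 stood lowest. On the log2 scale, with 1 count added to each arm, the ratio was 4.38 ± 0.09 in model and 3.97 ± 0.46 in control libraries (SD, n = 3 each), a difference of 0.41 (SE 0.33, limma adjusted p = 0.621 over 125 hairpins). Without control replicate 44 this difference was 0.15 (limma adjusted p = 0.932).

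In miR-216b the 5p arm was the more dominant one, with 93.7, 89.8 and 103 reads per 3p read in model replicates 56, 57 and 59, against 86.0, 127 and 108 in control replicates 43, 44 and 45. The model values lay within the control range. The log2 ratio was 6.57 ± 0.10 in model and 6.71 ± 0.28 in control libraries (SD, n = 3 each), a difference of -0.15 (SE 0.29, limma adjusted p = 0.894).

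In miR-217 neither arm was the more abundant one in all libraries. There were 0.779, 0.830 and 1.29 reads of the 5p arm per 3p read in model replicates 56, 57 and 59, against 0.595, 0.327 and 1.99 in control replicates 43, 44 and 45. The 3p arm was the more abundant one in 2 of 3 model and 2 of 3 control libraries, and the 5p arm in model replicate 59 and control replicate 45. The log2 ratio was -0.09 ± 0.40 in model and -0.46 ± 1.33 in control libraries (SD, n = 3 each), a difference of 0.37 (SE 0.65, 95% interval -1.17 to 1.91, limma adjusted p = 0.894). It was 1.09 without control replicate 45 (limma adjusted p = 0.177) and -0.21 without control replicate 44 (limma adjusted p = 0.957).

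The span of this log2 ratio over the 6 libraries was 2.60 for miR-217, 1.00 for miR-216a and 0.56 for miR-216b, against a median of 1.53 over 125 hairpins, and miR-217 ranked 20 from the widest. Both ends of its span were controls, replicate 45 high and replicate 44 low. That pair formed the ends in the same order in 12 of the 125 hairpins and in the opposite order in 5. Of all hairpins, 0.8% passed the limma threshold for a changed arm ratio, and 0 of the 3 of this cluster did, with 14.4% of all hairpins and 0 of the 3 at an unadjusted p under 0.05.

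**Figure D4:**
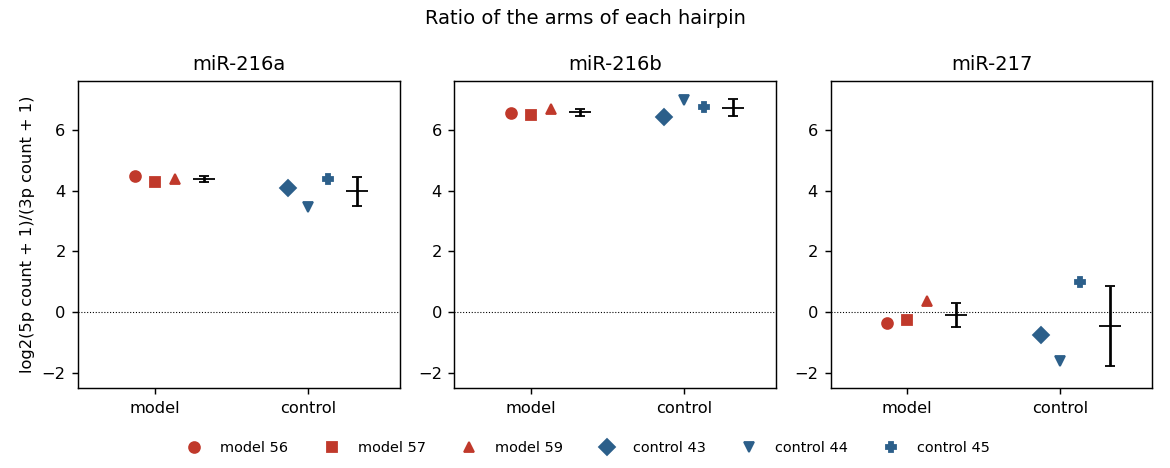
Log2 ratio of 5p to 3p counts, with 1 count added to each (vertical axis; the dotted line at 0 marks equal counts), for the 3 hairpins in model (red) and control (blue) libraries, one symbol per replicate, with the mean and SD as a black bar. The values of miR-216a and miR-216b stay far above 0, while those of miR-217 lie on both sides of it, from -1.61 in control replicate 44 to 0.99 in control replicate 45.

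Set against each other within a library, the 5p arms of the cluster kept their order in every library, miR-216a-5p above miR-216b-5p above miR-217-5p. Reads of miR-216b-5p were 23.6%, 25.3% and 30.0% of those of miR-216a-5p in model replicates 56, 57 and 59, against 28.3%, 33.5% and 23.0% in control replicates 43, 44 and 45. The model values lay within the control range. The mean log2 ratio differed by -0.09 between model and control libraries (two-sided exact permutation p = 0.7, adjusted p = 0.8 over 3 ratios; 3 libraries against 3 cannot give less than 0.1). This difference was 0.037 without control replicate 44 and -0.23 without control replicate 45.

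Reads of miR-217-5p were 6.18%, 5.83% and 10.1% of those of miR-216a-5p in model replicates 56, 57 and 59, against 5.69%, 3.94% and 11.6% in control replicates 43, 44 and 45. Set against miR-216b-5p they were 26.2%, 23.0% and 33.7% in model replicates 56, 57 and 59, against 20.1%, 11.8% and 50.5% in control replicates 43, 44 and 45. Model replicate 59 and control replicate 45 were the highest of their groups in both ratios. The mean log2 ratio differed between model and control libraries by 0.16 relative to miR-216a-5p (two-sided exact permutation p = 0.8, adjusted p = 0.8) and by 0.25 relative to miR-216b-5p (two-sided exact permutation p = 0.7, adjusted p = 0.8). Both differences turned negative without control replicate 44, to -0.19 and -0.22. The difference relative to miR-216a-5p also turned negative without model replicate 59, to -0.09.

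Across the 6 libraries the arms mostly rose and fell together, with exceptions that each involved miR-217-5p. As a description over 6 libraries that share scaling and group, Pearson's r of log2(CPM + 1) was 0.91 between miR-216a-3p and miR-216b-5p and 0.91 between miR-216a-3p and miR-217-3p. It was negative only between the arms of miR-217 (-0.19) and between miR-217-5p and miR-216a-3p (-0.01). All other pairs lay between 0.34 and 0.91. The arms that went along with each other most closely were thus from different hairpins.

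The rows most like each 5p arm, out of 193 other known rows with a mean of at least 100 CPM, were different for the 3 arms. For miR-216a-5p they were miR-148a-3p (r = 0.95 over 6 libraries), another acinar-enriched miRNA, miR-141-3p (r = 0.90) of the epithelial miR-200 family, and miR-125a-5p (r = 0.89). All of these were highest in control replicate 45, and without it r was 0.69, 0.33 and 0.21 over 5 libraries. For miR-216b-5p they were miR-802-5p (r = 0.96), let-7g-5p (r = 0.93) and the epithelial miR-200c-3p (r = 0.93), with r of 0.93, 0.95 and 0.89 without control replicate 45. For miR-217-5p they were miR-125b-5p (r = 0.99), miR-29b-3p (r = 0.99) and miR-152-3p (r = 0.97), with r of 0.96, 0.95 and 0.86 without that library. The levels of these last rows in control replicate 45 were 14715, 4531 and 7339 CPM, against at most 6166, 3108 and 3561 CPM in the other 5 libraries. Choosing rows by likeness to miR-217-5p favours such rows, and over all rows tested 18.8% were highest in control replicate 45.

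The tested arms of a list of other miRNAs of pancreatic epithelium differed widely in level. Of 14 tested arms of miR-148a, miR-802, miR-375, miR-141, miR-200a, miR-200b, miR-200c and miR-429, 0 passed the edgeR threshold and 10 had negative log2 fold changes. Their median was -0.29, against 0.00 for all rows and -0.27 for the 99 rows of at least 1000 CPM, of which 70 were negative. The list is not matched in level to those 99 rows. Its arms miR-802-5p, miR-148a-3p, miR-429-3p, miR-200a-3p, miR-200c-3p, miR-141-3p and miR-200b-3p, all above 1000 CPM, had -0.72, -0.55, -0.52, -0.46, -0.34, -0.31 and -0.06. Below 1000 CPM, miR-148a-5p had -0.27, and miR-141-5p, miR-200a-5p, miR-200b-5p and miR-200c-5p had 0.45, 0.34, 0.02 and 0.14. The list also holds miR-802-3p, which is among the 10 arms with negative log2 fold changes. The summed level of the 14 arms was 149793 to 163351 CPM in model and 193863 to 259398 CPM in control libraries, highest in control replicate 45. The islet-enriched miR-375-3p, the most abundant of them, averaged 36724 ± 5099 CPM in model and 60741 ± 9427 CPM in control libraries (SD, n = 3 each; log2 fold change -0.73, adjusted p = 0.0611 in edgeR), and its list of 8 islet arms had a median of -0.27.

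Markers of other cell types had values in both directions. Of 7 tested leukocyte arms 1 was called higher, miR-223-3p (named after its values were seen), where 1% of all rows tested were, with a median log2 fold change of 1.45 and a summed level of 5367 to 11532 CPM in model and 4607 to 6903 CPM in control libraries. The most abundant, the lymphocyte-enriched miR-150-5p, averaged 3454 ± 2228 CPM in model and 4404 ± 769 CPM in control libraries (SD, n = 3 each; log2 fold change -0.35, edgeR adjusted p = 0.735). Of the other lists, 0 members passed the edgeR threshold. The median log2 fold change was 0.20 over 9 stromal and smooth muscle arms, with a summed level of 18161 to 21722 CPM in model and 18667 to 28699 CPM in control libraries. These lists count every row, also rows with identical values such as miR-199a-3p and miR-199b-3p, which enter this median and sum separately. For 2 endothelial arms the median was -0.12, with 32211 to 37872 CPM in model and 40568 to 47690 CPM in control libraries. For 7 erythroid arms it was -0.11, with 7181 to 12277 CPM in model and 10766 to 13766 CPM in control libraries. Liver arms (5 tested, median 0.05) summed to at most 4250 CPM and striated muscle arms (3 tested, median 0.02) to at most 147 CPM in any library. For the most abundant stromal, endothelial and erythroid rows, miR-143-3p, miR-126a-3p and miR-451a, the log2 fold changes were -0.26, -0.36 and -0.37. Those of liver and striated muscle, miR-192-5p and miR-1a-3p, had -0.03 and -0.47. Their adjusted p-values in edgeR, in the same order, were 0.537, 0.157, 0.327, 0.967 and 0.517. The part of these other cell types in the values of the cluster was not tested.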

How the data were processed

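Small RNA of 18 to 30 nt was ligated to adapters with unique molecular identifiers and amplified, per the labels' protocols. The authors deposited whole-number read counts per mature arm, per the file headers, and RPM values, in which the authors divided each count by a library total of 22055639 to 27876715, recovered here from count over RPM in rows of at least 100 counts. The submitters' processing notes name Bowtie2 and GRCm38.p6, with no role given. The sources used here do not say whether molecular identifiers were collapsed. The Wilson and Poisson intervals cover counting error only. Those of log2 fold changes and arm ratios also include variation among libraries.

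Counts of all 6 libraries were tested with edgeR 4.0.16 (R 4.3.3): filterByExpr at its defaults (minimum count 10, total 15), which kept 499 rows and all 6 arms, TMM factors, robust quasi-likelihood fit, two-sided, Benjamini-Hochberg over 499 rows. Standard errors are the fitted coefficient over the square root of F. DESeq2 1.42.0 was an alternative. Arm ratios used limma 3.58.1 with robust empirical Bayes on the 125 hairpins whose arms each averaged 10 or more counts. Both fits were also run on simulated counts with the same set variation for all rows and changes larger than those of the 6 arms with TMM. Their power for smaller changes was not tested. Groups were read from the sample titles. Hairpins and arms were placed with RefSeq and GENCODE on GRCm38.

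The named rows are the 6 arms, the 3 known rows of at least 100 CPM with the highest r to each 5p arm (identical sequences once), rows sharing a seed, and the most abundant row of each marker list. The arms, lists and tests were chosen with earlier results of these data known.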

Additional observations from a re-analysis of the deposited data

How the results depend on the processing

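Beside 5 rows higher and 1 lower with edgeR and TMM, no low-count filter gave 23 and 35, a stricter filter of 50 counts in 3 libraries 7 and 5, known arms alone 8 and 7, and DESeq2 22 and 22. RLE factors gave 8 lower rows, upper quartile factors 39, total counts alone 17 higher rows, and the authors' totals 124 higher and 2 lower. Leaving out 1 library gave 3 to 5 higher and 0 to 5 lower. Past the threshold came miR-216a-3p without a low-count filter (-0.82, edgeR adjusted p = 0.0187), with DESeq2 (-0.80, adjusted p = 0.0116) and with upper quartile factors (-1.09), and miR-216b-5p with the last (-0.77). Signs turned with the authors' totals for miR-216a-5p (0.41), miR-216b-5p (0.32), miR-216b-3p (0.44), miR-217-5p (0.41) and miR-217-3p (0.16). The cause was not tested, beyond the shift that a scaling gives every row.

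Leaving out 1 library, the log2 fold change ran from -0.53 to -0.22 for miR-216a-5p, -0.93 to -0.67 for miR-216a-3p, -0.55 to -0.42 for miR-216b-5p, -0.46 to -0.26 for miR-216b-3p, -0.87 to 0.37 for miR-217-5p and -0.72 to -0.49 for miR-217-3p, and 0 of these fits called an arm. The log2 arm ratio difference ran from 0.15 to 0.61 for miR-216a, -0.30 to -0.02 for miR-216b and -0.21 to 1.09 for miR-217. The log2 ratio difference between 5p arms ran from -0.23 to 0.037 for miR-216b-5p over miR-216a-5p, -0.19 to 0.59 for miR-217-5p over miR-216a-5p and -0.22 to 0.83 for miR-217-5p over miR-216b-5p. The sign of these ratios and of the miR-217 arm ratio thus rested on single libraries. The pseudocount, minimum count and robust option moved no arm ratio past the threshold. No paired analysis was possible because model and control libraries share no replicate number. Depth was lowest for miR-216b-3p, with 125 to 212 counts per library.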
